A study of Oncorhynchus mykiss with 24 samples.

Results

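The embryos of this rainbow trout study were compared on a salmonid cDNA array, and the keratins are described here. A keratin was taken as any expressed sequence tag (EST) spot whose description in the scanner files begins with "Keratin". This gave 37 of 16067 EST spots. By description, 23 were type I keratins (13 of keratin 13, 9 of keratin 18 and 1 of keratin 18-A) and 10 were type II keratins, all of keratin 8. The other 4 met the letter of the rule but carry the names of keratinocyte-associated proteins, which are not keratins, and were kept out of the counts. A description names a protein that the EST resembles. Several ESTs can come from a single gene or from near-identical gene copies, which a cDNA spot cannot tell apart, so the ESTs of a description are not independent of each other.

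Keratins are the intermediate filament proteins of epithelia, and each filament is built from pairs of a type I and a type II chain. Keratin 8 (type II) and keratin 18 (type I) are the usual pair of simple epithelia, and in zebrafish both are also made by the outermost cell layer of the early embryo. Keratin 13 is a type I keratin that in mammals belongs to stratified epithelia such as the lining of the mouth.

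The 48 embryos came from repeated backcrossing of Clearwater (CW), a clonal line that develops fast, into the slower OSU clonal line. RNA of each whole embryo was hybridized to 1 of 24 arrays, with 1 embryo labelled with Cy3 and 1 with Cy5 on each. Embryos were taken at 15, 19 and 28 days post fertilization (dpf), which are the eyed stage, the stage of caudal flexing and the beginning of hatch, after rearing at 11 °C. At a major QTL (a quantitative trait locus) of embryonic timing their genotype was OSU/CW or OSU/OSU, so that every embryo carried at least 1 OSU allele. Each combination of sex, genotype and dpf held 4 embryos. Each array paired an OSU/CW with an OSU/OSU embryo matched for sex and dpf, and arrays are named here by the number in their sample titles. Sex was read from a Y-linked DNA marker and the QTL genotype from linked microsatellites. Since whole embryos were used, a signal cannot be placed in the skin, and more keratin-making cells cannot be told apart from more keratin RNA per cell.

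The 16 embryos of each dpf lay on 8 arrays of their own, so time point and set of arrays cannot be told apart. The median ratio of spot signal to local background was 1.20 to 1.97 in the 16 channels of 15 dpf, 1.22 to 3.83 at 19 dpf and 2.11 to 5.79 at 28 dpf. Values are normalized log2 intensities, and a feature was called when limma's moderated test gave a false discovery rate (FDR) under 0.05 over the 11439 features tested. Of the keratin ESTs, 31 were tested, 12 of keratin 13, 10 of keratin 18 (18-A included) and 9 of keratin 8. The keratin 13 EST CK991113 was left out because it stood above the 90th percentile of the negative controls in only 14 of 48 channels, and the keratin 8 EST CB494172 because it was marked as a poor spot on 8 arrays. Both ESTs of keratinocytes-associated transmembrane protein 2 were too dim, with 3 channels (CA053070) and 7 channels (CB516134) above that level. The highest raw signal of a keratin spot was 58550, against a scanner limit of 65533.5.

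From 15 to 28 dpf most of the keratin 13 ESTs rose, while those of keratin 18 and most of those of keratin 8 were not called. Of the 12 tested keratin 13 ESTs, 9 were called higher at 28 dpf and 0 lower, with a median log2 difference of 0.80 and a range of 0.18 to 1.91. Of all features tested 19.9% were called higher, and their median difference was 0.03. Of the 10 keratin 18 ESTs, 0 were called by limma and 0 had an unadjusted p under 0.05, with a median of -0.22 and a range of -0.47 to 0.54. Of the 9 keratin 8 ESTs, 2 were called higher and 1 lower, with a median of -0.09, against 17.8% of all features called lower. By type, 9 of 22 type I ESTs and 2 of 9 type II ESTs under the rule were called higher. These type II ESTs are all of keratin 8, and their share lay near that of all features. The medians of the types under the rule were 0.39 and -0.09. Type II ESTs of other names, which the rule leaves out, were also called higher and are given below, so these values do not compare the types as a whole. No test was made between the groups of ESTs.

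**Figure D1:**
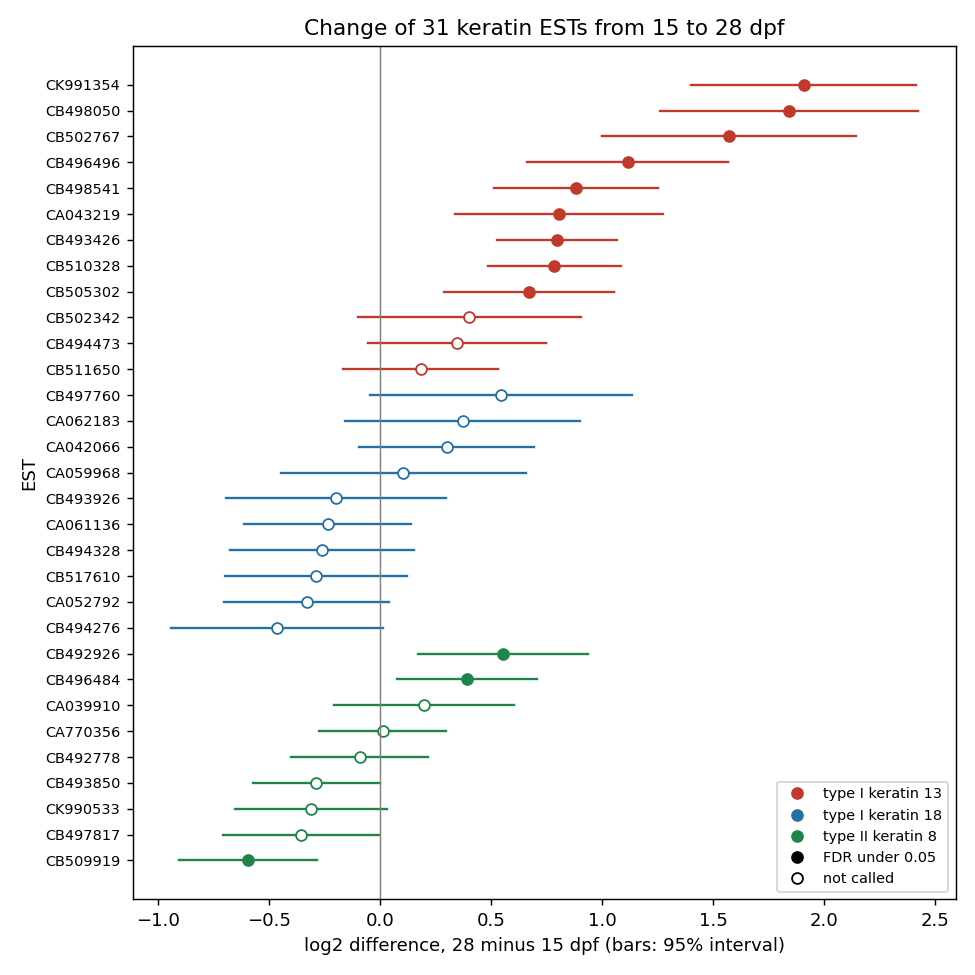
Log2 difference between 28 and 15 dpf (x axis) of each of the 31 tested keratin ESTs (y axis), with 95% intervals of the limma fit and filled points for an FDR under 0.05. All 12 keratin 13 ESTs lie above 0 and 9 are filled, while the 10 keratin 18 ESTs lie on both sides of 0 with none filled.

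Among the tested ESTs under the rule, the largest rise was that of CK991354 (keratin 13). Its log2 intensity ran from 10.09 to 12.49 with a median of 11.08 in the 14 embryos measured at 15 dpf, from 11.15 to 13.16 with a median of 12.13 at 19 dpf, and from 12.05 to 13.79 with a median of 13.03 in 14 embryos at 28 dpf. Of the embryos of 28 dpf 11 lay above the highest of 15 dpf, so the groups overlapped a little. The difference from 15 to 28 dpf was 1.91 ± 0.25 (SE), or 3.75-fold (limma, adjusted p = 1.9e-07). CK991354 was above the negative controls in 7 of 14 channels at 15 dpf, 15 of 16 at 19 dpf and 14 of 14 at 28 dpf. The size of its rise therefore rests in part on dim values at 15 dpf.

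CB498050 (keratin 13) rose nearly as much. Its values ran from 8.72 to 11.33 with a median of 10.38 at 15 dpf, from 10.44 to 12.34 with a median of 11.29 at 19 dpf and from 11.00 to 13.25 with a median of 12.32 at 28 dpf. At 28 dpf 13 of 16 embryos lay above every embryo of 15 dpf, and the difference was 1.84 ± 0.29 (limma, adjusted p = 3.64e-06). This EST and CB496496 would not have passed the filter on dim spots without the channels of 28 dpf. Among the 10 keratin 13 ESTs that would have passed without them, 7 were called higher, with a median of 0.79.

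CB502767 (keratin 13) had a wide spread among the embryos. It ran from 10.47 to 12.77 with a median of 11.31 at 15 dpf and from 11.55 to 13.76 with a median of 13.25 at 28 dpf, and 13 of 16 late embryos exceeded all early ones. It rose by 1.57 ± 0.28 (limma, adjusted p = 3.77e-05).

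CB493426 (keratin 13) was a bright spot with little spread. Its values ran from 13.50 to 14.41 at 15 dpf, from 14.46 to 15.29 in the 10 embryos measured at 19 dpf and from 14.52 to 15.12 at 28 dpf. The groups of 15 and 28 dpf did not overlap. It rose by 0.80 ± 0.13 between them (limma, adjusted p = 1.48e-05), and nearly all of this had taken place by 19 dpf, with a difference of 0.03 ± 0.15 between 19 and 28 dpf.

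CB510328 (keratin 13) was measured in 16, 12 and 10 embryos of the 3 time points. Its values ran from 12.58 to 14.01 with a median of 13.46 at 15 dpf and from 13.96 to 14.58 with a median of 14.17 at 28 dpf, where 9 of 10 embryos lay above the highest of 15 dpf. It rose by 0.78 ± 0.15 (limma, adjusted p = 0.000108). The other keratin 13 ESTs called higher were CB496496, CB498541, CA043219 and CB505302, with differences of 1.11, 0.88, 0.80 and 0.67. All 9 calls were kept without any 1 of the 24 arrays.

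The keratin 13 ESTs that were not called included the brightest type I spot of the array, CB494473. Its values ran from 13.77 to 15.04 with a median of 14.47 at 15 dpf and from 13.90 to 15.49 with a median of 14.77 at 28 dpf. The difference of 0.35 had a 95% interval of -0.06 to 0.75, which takes in the estimate of the called EST CB505302. CB502342 and CB511650 differed by 0.40 and 0.18. The untested CK991113 was above the negative controls in 0 of 16 channels at 15 dpf, 3 of 12 at 19 dpf and 11 of 14 at 28 dpf, with medians of 9.15, 9.89 and 10.76.

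**Figure D2:**
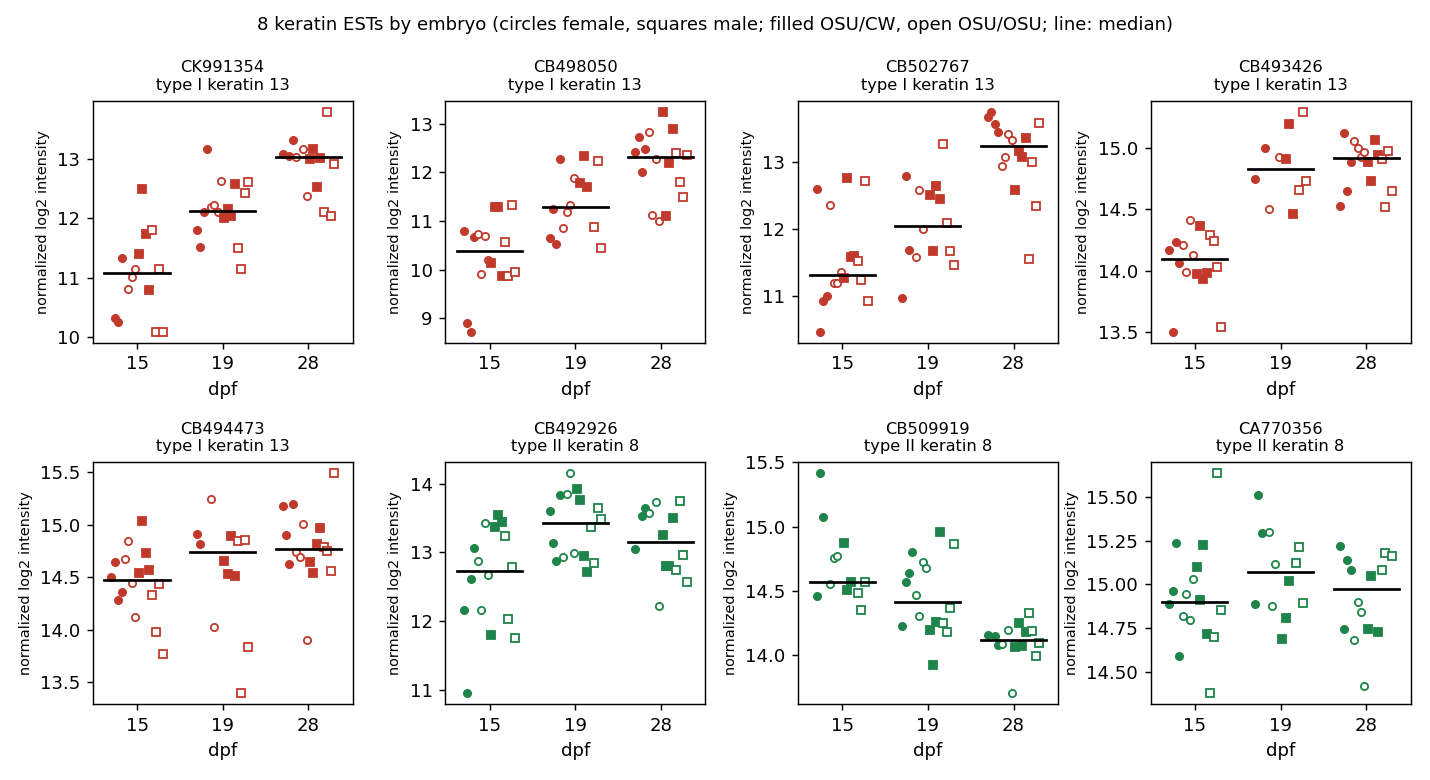
Normalized log2 intensity (y axis, a scale of its own in each panel) of 8 keratin ESTs in each embryo by dpf (x axis), with the median as a line, females as circles, males as squares, OSU/CW filled and OSU/OSU open. The values of CB493426 at 28 dpf all lie above those of 15 dpf, those of CB509919 all lie below, and those of the bright CB494473 and CA770356 overlap.

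Keratin 8 ESTs, the type II partners of keratin 18, went in both directions. CB509919 ran from 14.35 to 15.42 with a median of 14.57 in 12 embryos at 15 dpf and from 13.70 to 14.33 with a median of 14.12 in 14 embryos at 28 dpf. All 14 late embryos lay below the lowest of 15 dpf, and it fell by 0.60 ± 0.15 on the log2 scale (limma, adjusted p = 0.00255).

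CB492926 (keratin 8) was higher at 28 dpf by 0.55 ± 0.19 (adjusted p = 0.0198), with values of 10.95 to 13.55 at 15 dpf and 12.22 to 13.74 at 28 dpf that overlapped. This call was lost without array 14 or array 38, and over the 24 fits that each left out 1 array the difference was 0.40 to 0.64 and the adjusted p at most 0.0769. CB496484 was higher by 0.39 ± 0.16 (adjusted p = 0.0435), a call that was lost without any 1 of arrays 13, 17, 23, 26, 28, 31, 33, 36, 37, 38 and 41, with differences of 0.31 to 0.48 and an adjusted p of up to 0.138. The brightest type II spot, CA770356, had medians of 14.90, 15.07 and 14.97 at the 3 time points and differed by 0.01, with a 95% interval of -0.28 to 0.30. The untested CB494172 had medians of 14.40 in 6 embryos at 15 dpf, 14.19 in 10 at 19 dpf and 13.87 in 16 at 28 dpf. Its values ran from 13.26 to 14.93 at 15 dpf and from 13.16 to 14.25 at 28 dpf, so they overlapped.

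The keratin 18 ESTs, type I chains of simple epithelia, spread around 0. The lowest was CB494276 with a difference of -0.47 and an interval of -0.94 to 0.01, and the highest was CB497760 (keratin 18-A) with 0.54 and an interval of -0.04 to 1.13. The interval of CB497760 takes in the estimates of several called keratin 13 ESTs, so a p above the threshold does not show that it stayed level. The intervals of CA042066 and CA062183 reached 0.69 and 0.90, past the lowest called keratin 13 estimate (CB505302, 0.67). Those of CA052792, CB517610, CA061136, CB494328, CB493926 and CA059968 ended below that estimate, at 0.04, 0.12, 0.14, 0.15, 0.30 and 0.66, as did that of CB494276. Smaller changes of these ESTs in either direction remain possible.

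These directions are relative to the other features of the array. With arrays normalized by loess alone the median of all features moved by -0.54 between 15 and 28 dpf, and the medians of keratin 13, 18 and 8 were 0.49, -0.64 and -0.29, with 5 keratin 13 ESTs called higher and 5 keratin 18 and 4 keratin 8 ESTs called lower. Of all 11439 features 432 were called higher and 4501 lower in that setting. With the centred log values behind the authors' score table, the median of all features was 0.33 and the group medians were 1.17, 0.14 and 0.40, all 12 keratin 13 ESTs were called higher, and CB509919 was no longer lower (0.03). Of the 9577 features tested with these values 2465 were called higher and 933 lower. The order that puts keratin 13 first was the same in these settings, but whether keratin 8 and 18 went up or down was not.

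The mean over the ESTs of a group, each set against its own mean at 15 dpf, was computed for every embryo. For keratin 13 it ran from -0.55 to 0.52 with a median of 0.02 at 15 dpf, from 0.08 to 1.16 with a median of 0.55 at 19 dpf and from 0.45 to 1.24 with a median of 1.04 at 28 dpf. The medians of keratin 18 were 0.00, -0.10 and -0.01 and those of keratin 8 were 0.08, 0.17 and -0.03. Within each embryo the keratin 13 mean exceeded the keratin 8 mean in 9 of 16 embryos at 15 dpf, 16 of 16 at 19 dpf and 16 of 16 at 28 dpf. Each EST is set against its own mean at 15 dpf, so a near-even split there follows from the definition. The excess of keratin 13 over the keratin 8 mean ran from 0.68 to 1.19 at 28 dpf, and that over the keratin 18 mean from 0.74 to 1.19. CB498050 and CB496496 in the keratin 13 mean passed the filter on dim spots only with the channels of 28 dpf. The same holds for CA042066 in the keratin 18 mean. The keratin 18 mean differed from the keratin 8 mean by a median of 0.04 at 28 dpf, above 0 in 11 of 16 embryos, so these groups had no clear order there. These means are given as a description, with no test.

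**Figure D3:**
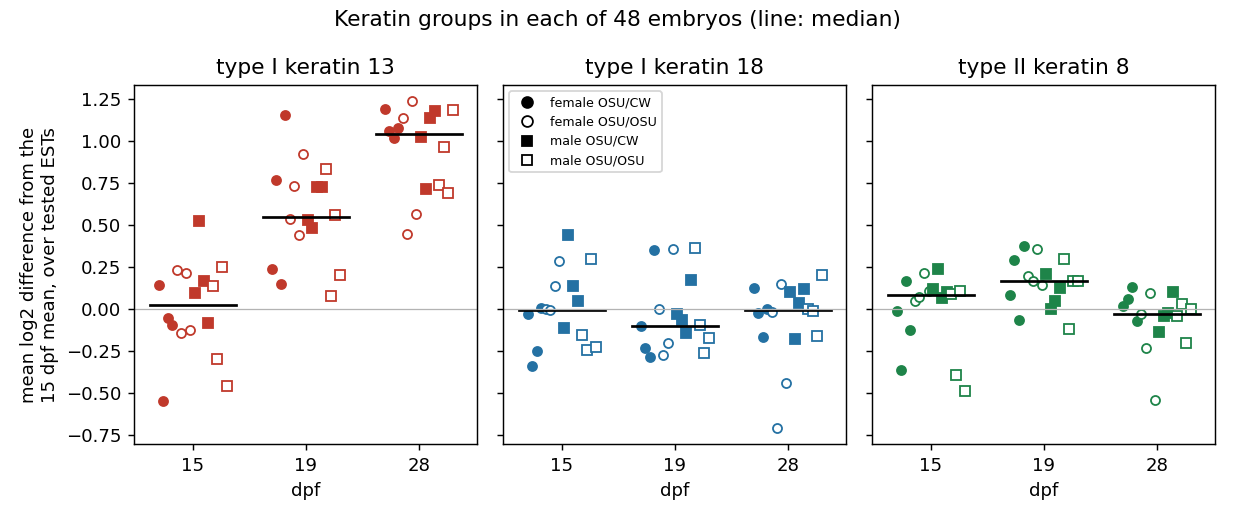
Mean log2 difference of the tested ESTs of a group from their own means at 15 dpf (y axis) in each of the 48 embryos by dpf (x axis), in 1 panel each for keratin 13, keratin 18 and keratin 8, with the median as a line. The keratin 13 medians step from 0.02 to 0.55 and 1.04, while those of the other 2 panels stay between -0.10 and 0.17.

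Between 15 and 19 dpf, 5 of 31 keratin ESTs were called higher and 0 lower by limma, against 2.55% and 0.271% of all features. Of these 4 were keratin 13 ESTs, CB493426 (0.77 ± 0.15, adjusted p = 0.00171), CK991354 (1.13 ± 0.24, adjusted p = 0.00353), CB510328 (0.56 ± 0.14, adjusted p = 0.0184) and CB498050 (1.10 ± 0.30, adjusted p = 0.0303). All 12 keratin 13 ESTs had a difference above 0, with a median of 0.53. The fifth call was CB492926 of keratin 8, which ran from 12.72 to 14.15 at 19 dpf with 7 of 16 embryos above the highest of 15 dpf (0.76 ± 0.18, adjusted p = 0.0102). None of the 10 keratin 18 ESTs was called or had an unadjusted p under 0.05.

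Some of these early calls were lost when a single array was left out, while their estimates stayed above 0. Without array 14 or without array 22 the count of calls was 3. Calls over all features fell as well, from 292 higher and 31 lower with all arrays. They were 232 and 8 without array 14, and 231 and 15 without array 22. CB498050 was lost without any 1 of arrays 14, 17, 18, 22, 40 and 41, with differences of 0.92 to 1.07 in those fits and an adjusted p of up to 0.143. CB510328 was lost without array 10, 14 or 22, with differences of 0.49 to 0.53 and an adjusted p of up to 0.0696.

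Between 19 and 28 dpf, 3 of 31 keratin ESTs were called higher and 0 lower by limma, against 8.34% and 8.37% of all features, so the share was close to that of the array. All 3 were of keratin 13, and 1 of them, CB496496, passed the filter on dim spots only with the channels of 28 dpf, with 5, 9 and 16 channels above the negative controls at 15, 19 and 28 dpf. It ran from 9.96 to 11.41 with a median of 10.63 at 15 dpf. At 19 dpf it ran from 9.54 upwards with a median of 10.67. At 28 dpf it ran from 10.62 to 12.44 with a median of 11.94. Its medians thus moved only in the later step (0.93 ± 0.22, adjusted p = 0.00369). The embryos of 19 and 28 dpf overlapped, with 8 of 16 embryos of 28 dpf above the highest of 19 dpf. That highest embryo lay above the median of 28 dpf.

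CB502767 rose by 1.03 ± 0.30 (adjusted p = 0.0136), and 8 of 16 embryos of 28 dpf lay above the highest of 19 dpf. Without array 10 its difference was 0.87 and the adjusted p 0.0569. CK991354 rose by 0.78 ± 0.24 (adjusted p = 0.0244), a call lost without any 1 of arrays 15, 19, 26, 28 and 38, with differences of 0.67 to 0.76 and an adjusted p of up to 0.061.

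The next smallest p-values of this step were those of a keratin 18 and a keratin 8 EST, which were not called. CA042066 (keratin 18) had medians of 10.62 at 19 dpf and 11.17 at 28 dpf (0.54 ± 0.20, adjusted p = 0.0591) and passed the filter on dim spots only with the channels of 28 dpf. CB493850 (keratin 8) had medians of 14.69 and 14.23 (-0.38 ± 0.15, adjusted p = 0.0675). Of the 9 keratin 8 ESTs only 1 had a difference above 0 in this step, with a median of -0.21, against 7 between 15 and 19 dpf. None of the 9 was called in this step. No share of all features above 0 is set beside these counts of signs, so nothing is read from them. With loess alone 0 keratin ESTs were called higher and 9 lower in this step, where the median of all features moved by -0.61. Of all 11439 features 147 were called higher and 4575 lower in that setting.

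Keratin 13 ESTs were called higher in either sex and genotype. In females 7 of 12 keratin 13 ESTs were called higher at 28 than at 15 dpf against 14.3% of all features, and in males 4 of 12 against 7.7%. In OSU/CW and in OSU/OSU embryos the count was 9 of 12, against 17.7% and 14.9% of all features. The keratin 18 ESTs had 0 calls in each of these 4 fits. The 12 keratin 13 ESTs include CB498050 and CB496496, which passed the filter on dim spots only with the channels of 28 dpf. Counts without them are not given for the single sexes and genotypes. The difference of the change between the sexes was tested as an interaction and was called for 0 of 31 keratin ESTs, with 0 unadjusted p-values under 0.05, so the lower count in males is not shown to be a sex difference.

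Females and males were compared at each dpf over both genotypes. Limma called 0 of 31 keratin ESTs in each of the 3 comparisons, against 0.00874%, 0% and 0.00874% of all features. Unadjusted p-values under 0.05 were found for 1, 0 and 0 of them, or 3.23%, 0% and 0%, against 6.22%, 8.79% and 3.37% of all features. The medians over the keratin ESTs were 0.03, 0.07 and -0.05.

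The member with the smallest p between the sexes at 15 dpf was CA059968 of keratin 18. It ran from 11.22 to 13.59 with a median of 11.68 in females and from 12.11 to 13.98 with a median of 12.93 in males, and the sexes overlapped (-0.91 ± 0.37, adjusted p = 0.746). At 28 dpf its medians were 12.71 in females and 13.05 in males (adjusted p = 1). CB510328 of keratin 13 had medians of 13.34 in females and 13.65 in males at 15 dpf (adjusted p = 0.845).

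At 19 dpf the smallest p-values were those of CB511650 (keratin 13), with medians of 14.60 in 6 females and 14.16 in 6 males (adjusted p = 0.737), and of CA042066 (keratin 18), with 10.50 and 10.65 (adjusted p = 0.761). At 28 dpf CB502767 (keratin 13) ran from 12.95 to 13.76 in females and from 11.55 to 13.59 in males, so the males spread more widely (0.57, with a 95% interval of -0.24 to 1.38, adjusted p = 1). None of these differences was called.

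The rule of the methods, an overall test followed by an FDR of 0.2 over all 66 pairwise contrasts of the 12 combinations, called 3 keratin 13 ESTs, all lower in females and all between OSU/CW embryos. At 15 dpf, where it called 2.88% of all features, CK991354 had medians of 10.32 in 3 females and 11.57 in 4 males (-0.79) and CB510328 medians of 13.13 and 13.83 (-0.49). OSU/CW was in Cy5 on 3 of 4 arrays of these females and 1 of 4 of these males, so the gap between the medians carries an imbalance of dye, for which the fitted differences in parentheses are adjusted. At 19 dpf, where it called 5.5% of all features, CB498050 had medians of 10.96 in 4 females and 11.79 in 3 males (-0.85). In the other 4 comparisons of the sexes it called 0 keratin ESTs, against 1.98% of all features in OSU/OSU embryos at 15 dpf, 3.02% at 19 dpf, and 1.19% (OSU/CW) and 1.16% (OSU/OSU) at 28 dpf.

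OSU/CW and OSU/OSU embryos shared arrays, so this comparison was made within arrays. Limma called 0 of 31 keratin ESTs at 15, 19 and 28 dpf, against 0%, 0% and 0% of all features, and unadjusted p-values under 0.05 numbered 1, 0 and 2. No share of all features is set beside these unadjusted counts, so nothing is read from them. At 28 dpf 24 of 31 keratin ESTs had a higher estimate in OSU/CW embryos, with a median of 0.15 against 0.01 for all features, and all 9 keratin 8 ESTs were among them with differences of 0.05 to 0.30, against 1 of 9 at 19 dpf. Among the 16 embryos of 28 dpf, the female OSU/OSU embryos of arrays 36 and 39, both in Cy5, had the lowest means of all 3 keratin groups, with 0.45 and 0.57 for keratin 13, -0.71 and -0.44 for keratin 18 and -0.23 and -0.54 for keratin 8. Without array 39 the estimate was above 0 for 7 of 9 keratin 8 ESTs, with a median of 0.07, and for 21 of 31 keratin ESTs. Without array 36 these counts were 9 of 9 and 24 of 31. These ESTs share arrays and may share sequence, and no single EST was called. A lean to OSU/CW at 28 dpf was not particular to keratins. With all arrays the estimate was above 0 for 46 of 52 hemoglobin, 41 of 45 crystallin and 34 of 44 apolipoprotein ESTs. Nearer an even split were 46 of 94 ESTs of myosins, troponins and parvalbumins, 25 of 41 of collagens and 6 of 11 of keratins outside the rule.

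The smallest p-values between the genotypes at 28 dpf were those of 2 keratin 13 ESTs. CB511650 had medians of 14.35 in 7 OSU/CW and 14.23 in 7 OSU/OSU embryos (0.30, with a 95% interval of 0.03 to 0.57, adjusted p = 0.999). CB498050 ran from 11.11 to 13.25 with a median of 12.45 in OSU/CW and from 11.00 to 12.84 with a median of 12.05 in OSU/OSU embryos (0.47, with an interval of 0.02 to 0.92, adjusted p = 0.999), and the genotypes overlapped.

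At 15 dpf the dim keratin 18 EST CA042066 had medians of 10.79 in OSU/CW and 10.88 in OSU/OSU embryos (-0.31, adjusted p = 0.882) and at 19 dpf of 10.70 and 10.30 (0.29, adjusted p = 0.849), so its estimates changed sign. CA052792 (keratin 18) had medians of 13.02 and 12.86 at 15 dpf (0.27, adjusted p = 0.905). CB494473 (keratin 13) had medians of 14.74 and 14.43 at 19 dpf (0.32, adjusted p = 0.85), with a wider spread in OSU/OSU embryos, and without array 15 the estimate was -0.02. Changes of the genotype difference with dpf were called for 0 of 31 keratin ESTs, against 0% of all features, with 1 unadjusted p under 0.05 in each of the 3 pairs of time points. Changes of the sex difference were likewise called for 0, against 0% of all features from 15 to 19 dpf, 0% from 19 to 28 dpf and 0.00874% from 15 to 28 dpf.

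**Figure D4:**
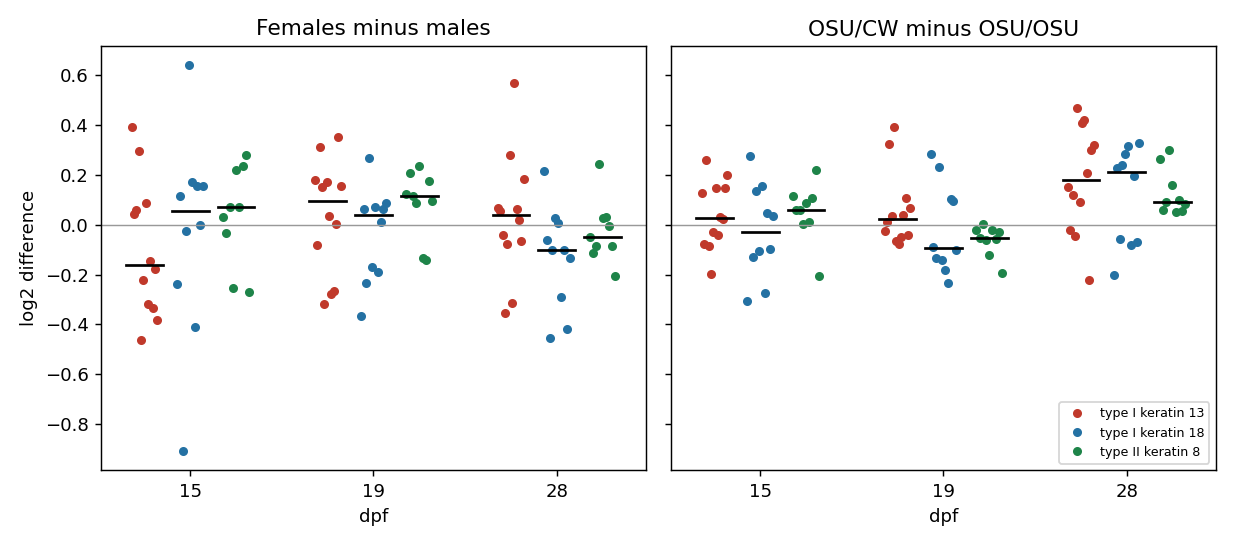
Log2 differences between females and males (left) and between OSU/CW and OSU/OSU embryos (right) on the y axis, for each tested keratin EST at 15, 19 and 28 dpf (x axis), coloured by group and with the median of each group as a black line. The points scatter on both sides of 0, none was called, and the keratin 8 points of the genotype comparison at 28 dpf lie between 0.05 and 0.30.

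Within the 12 combinations of sex, genotype and dpf, the keratin ESTs varied together only loosely from embryo to embryo. After the mean of each combination was taken off, the correlation over embryos had a median of 0.24 over the 66 pairs of keratin 13 ESTs, 0.09 over the 45 pairs of keratin 18 ESTs and 0.16 over the 36 pairs of keratin 8 ESTs. Pairs of a keratin 18 and a keratin 8 EST, the chains that pair in a filament, had a median of 0.16 over 90 pairs, no higher than the 0.25 over 108 pairs of a keratin 13 and a keratin 8 EST. These are descriptions over at most 48 embryos, in which both embryos of an array share its spots.

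**Figure D5:**
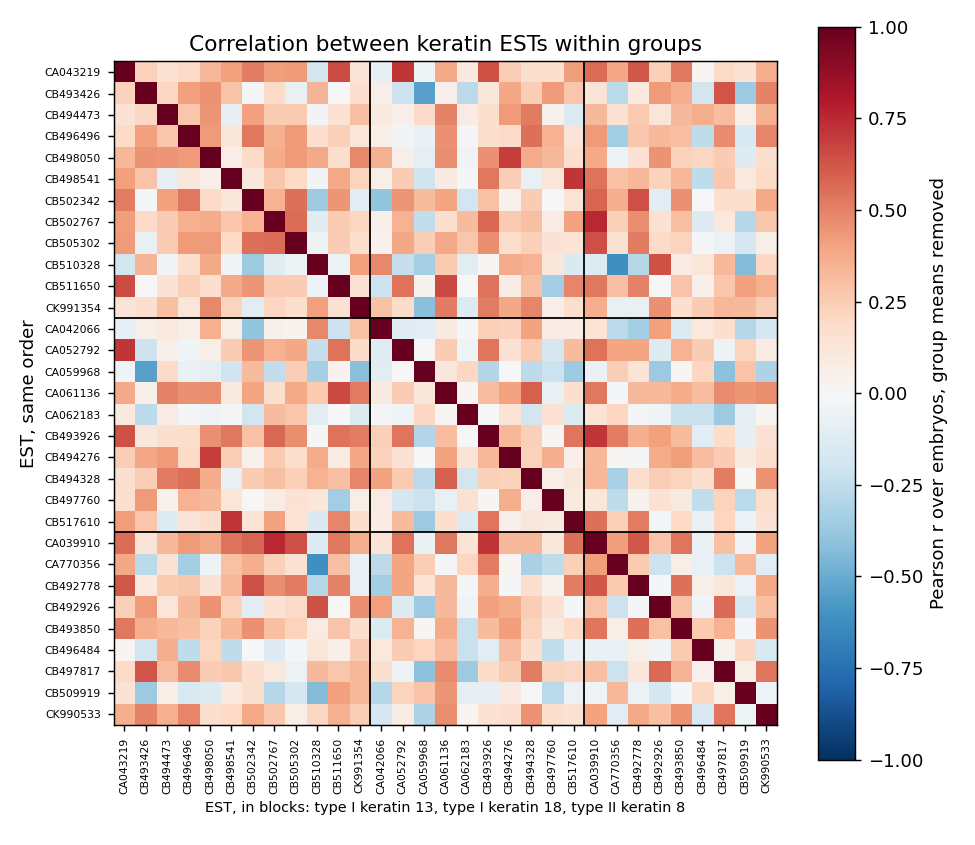
Pearson correlation (colour) over embryos between each pair of the 31 tested keratin ESTs, ordered by group on both axes, after the mean of each of the 12 combinations of sex, genotype and dpf was taken off. The blocks are mostly pale, with medians of 0.09 to 0.25 within and between groups.

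The keratin partners and other keratins of the array give the setting. A further 12 ESTs have a description that contains the word keratin without beginning with it, and 11 of them were tested. Of these, 9 were called higher at 28 than at 15 dpf and 1 lower, against 19.9% and 17.8% of all features. Among the 9 were ESTs of trout type II keratins named E1 and E2, where E stands for epidermal, and CK990808, named type I keratin S8. A rise was thus measured for ESTs of either type, and the names do not place a signal in a tissue.

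CB510619 (type II keratin E1) ran from 9.15 to 11.59 with a median of 10.18 at 15 dpf, from 10.26 to 12.22 with a median of 11.68 at 19 dpf and from 11.83 to 12.57 with a median of 12.22 at 28 dpf. The groups of 15 and 28 dpf did not overlap, and the difference was 2.03 ± 0.26 (limma, adjusted p = 6.88e-08). CB509935 (type II keratin E2) rose by 1.11 ± 0.17, and by the same 1.11 already between 15 and 19 dpf. The other E1 ESTs CB510503, CB496826 and CB493432 rose by 1.04, 0.79 and 0.36.

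CB493151 and CB496572, whose description names the mRNA of trout keratin 13, rose by 1.04 ± 0.19 and 0.65 ± 0.17. CK990808 (named type I keratin S8) rose by 0.92 and CB494649 (described as trout keratin 12) by 0.62. The EST of keratin 5, CB497422, which in mammals marks the basal layer of the epidermis, had medians of 10.88 at 15 dpf and 10.31 at 28 dpf and fell by 0.65 on the log2 scale (adjusted p = 0.00903). CA040487, with the description of a keratin-associated protein, differed by -0.11 and was not called.

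Proteins that anchor keratin filaments or mark epithelia, such as those of desmosomes and hemidesmosomes and the claudins, form a further list. Of its 25 tested ESTs, 2 were called higher and 1 lower between 15 and 28 dpf, with a median of 0.13, so fewer in either direction than the 19.9% and 17.8% of all features. Those called were CB493901 (claudin-15, 0.97) and CB510873 (claudin 23a, 0.95), tight junction proteins, and CA040886 (bullous pemphigoid antigen 1, -0.58), which links keratin filaments to the basal attachment sites of epithelial cells. Between 19 and 28 dpf 2 of the 25 were called higher and 0 lower, against 8.34% and 8.37% of all features. Among them was CB497318 (envoplakin), a plakin of the cornified envelope in mammals, which rose by 0.80 (adjusted p = 0.0108).

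Among the other intermediate filament ESTs 4 of 12 were called higher between 15 and 28 dpf and 2 lower, where the 2 lower are near the 17.8% of all features and the 4 higher stand against 19.9%. All 4 that rose were of desmin, the filament of muscle, by 0.71 to 1.68 (CB492425, CB494528, CB503003 and CB510611). The 2 that fell were CK990958 (vimentin, the filament of mesenchymal cells, -0.45) and CA041408 (neurofilament heavy polypeptide, -0.73).

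Lists of other tissues are given against the 19.9% of all features called higher and the 17.8% called lower between 15 and 28 dpf. Of the ESTs of myosins, troponins and parvalbumins, proteins of muscle, 71 of 94 were called higher (median 1.68), of those of crystallins, proteins of the eye lens, 41 of 45 (median 2.07) and of the collagens 25 of 41 (median 0.72). In the order given, 1, 2 and 3 ESTs of these lists were called lower. Of the hemoglobins 17 of 52 were called lower and 5 higher (median -0.39). Of the ESTs of dividing cells 8 of 17 were called lower and 0 higher (median -0.37). Of the apolipoproteins 9 of 44 were called higher and 8 lower, near the shares of all features. The part of such changes in the make-up of the embryo in the keratin values was not tested.

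The features most like the type I ESTs over the embryos, by the correlation with their mean standardised profile, were CB494307 (serum albumin 2, r = 0.88 over 36 embryos), CA051683 (proactivator polypeptide, 0.83), CA052160 and CK991255 (both SPARC, a matrix glycoprotein, 0.82 and 0.81) and CB497285 (tropomyosin alpha-4, an actin-binding protein, 0.80). Apart from CA051683, these were called higher at 28 than at 15 dpf, by 1.17 to 2.13. Those most like the type II ESTs were CB502159 (coatomer subunit epsilon, a vesicle coat protein, 0.74), CB517030 (hemoglobin subunit alpha, 0.69), CB491302 (mitochondrial uncoupling protein 2, 0.68), CA053581 (heterogeneous nuclear ribonucleoprotein A0, 0.68) and CB516494 (TGF-beta-inducible early growth response protein 3, 0.67). The type I profile pools keratin 13 and keratin 18, whose closest features differed. Keratin 13 ESTs alone were most like CA038058 (serum albumin 1, r = 0.91 over 46 embryos). Keratin 18 ESTs alone were most like CB502159 (0.71), the first feature of the type II ESTs too. The features named for type I were not among the closest of keratin 18. All these correlations run over all 3 time points and so carry the differences between them.

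Of the keratinocyte-named ESTs, CA041816 (keratinocytes-associated protein 2) had medians of 12.31 at 15 dpf and 11.73 at 28 dpf and fell by 0.53 on the log2 scale (adjusted p = 0.0245). CB506143, of the same description, differed by -0.01 and was not called.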

How the data were processed

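The authors deposited the scanner's signal and local background intensity of every spot and channel with no normalization. They also deposited a table of 1 score per spot and array (10153 spots). Each score equals the centred logarithm of signal minus background in Cy3 divided by that in Cy5, with the sign turned where OSU/CW was in Cy5, which rebuilt 100% of the values within 0.001 of the larger of 1 and the value. The column medians were -1.10 to 1.07. Such a quotient is not a log ratio and was not tested.

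In R 4.3.3 with limma 3.58.1, the background median was corrected by normexp (offset 50, which understates changes of dim spots), poor spots were set to missing, arrays were normalized by loess (control spots at weight 0) and Aquantile, and spots of an EST were averaged. Features above the 90th percentile of 1003 negative control spots in at least 16 of 48 channels, and measured on 2 or more arrays per sex and dpf, were fitted with 12 combinations of sex, genotype and dpf, dye, and array as a random block (correlation 0.537). P-values were adjusted by Benjamini-Hochberg over all 11439 features within each comparison. OSU/CW was in Cy5 on 3 of 4 arrays of females and 1 of 4 of males at 15 dpf, otherwise on 2 of 4. Replicates are separate embryos.

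Values are given for the 5 keratins with the smallest p in each time comparison and the brightest of each type. They are also given for the 2 with the smallest p in each comparison of sexes and genotypes. CB509919, CB496484 and the ESTs of other lists were named after their values were seen. The values of the untested CB494172 were also added with them known. The members and lists were chosen with earlier results of these data known. The lamin B receptor was kept out of the filament list. Of the member identifiers 0 were in the RefSeq table at hand, and no sequence was at hand. The code was tested on simulated data. The precision is limited by 4 embryos per combination.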

Additional observations from a re-analysis of the deposited data

Results flagged for a closer look

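Among 154 sets of 4 embryos (the 3 keratin groups and the named ESTs in each combination of sex, genotype and dpf), 8 held an embryo that stood far from the other 3, about the 1 in 20 that chance gives. At 15 dpf these were CB492926 in a male OSU/CW embryo (11.80 against a median of 13.44 of the others), CB493426 in another male OSU/CW embryo (14.36 against 13.97), CB502767 in a female OSU/OSU embryo (12.37 against 11.20) and the mean of the keratin 18 ESTs in a male OSU/OSU embryo (0.30 against -0.22). At 19 dpf they were CA052792 in a male OSU/CW embryo (13.48 against 12.51) and CB496496 in a female OSU/OSU embryo (11.81 against 10.70) and in a male OSU/CW embryo (11.52 against 10.62). At 28 dpf CB496496 was low in a male OSU/OSU embryo (11.82 against 12.03).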

How the results depend on the processing

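Counts of keratin ESTs called moved by over 1.5 times in these settings. From 15 to 19 dpf the count of 5 became 0 with loess alone, 3 with no dye term, 3 with only the arrays of both time points, 1 with the centred log values behind the score table (an alternative chosen after seeing the data) and 9 at an FDR of 0.2. Calls over all 11439 features moved too, from 292 higher and 31 lower in the main fit. They were 101 and 0 with loess alone, 306 and 19 with no dye term, and 200 and 16 with only the arrays of both time points. With the centred log values they were 170 and 9 of 9577 features. From 19 to 28 dpf the keratin count of 3 became 9 with loess alone (all lower), 5 with poor spots kept and 10 at an FDR of 0.2, and from 15 to 28 dpf the keratin count of 12 became 19 at an FDR of 0.2. Over all features, 954 higher and 957 lower from 19 to 28 dpf became 147 and 4575 with loess alone. With poor spots kept they became 1020 and 1104 of 11828 features. Counts of all features at an FDR of 0.2 are not given, so nothing is read from the keratin counts at that level. With each array left out in turn the keratin counts ran from 3 to 5, 2 to 4 and 10 to 12. Over all features the calls higher then ran from 212 to 356, 704 to 1198 and 1997 to 2449. The calls lower ran from 8 to 78, 603 to 1058 and 1855 to 2082. For the sexes the rule of the methods gave 2 at 15 dpf and 1 at 19 dpf in place of 0, and the counts for genotype and for changes with dpf were 0 in all settings run. Among named ESTs the sign turned for CA042066 from 19 to 28 dpf with loess alone (-0.24) and between the sexes at 19 dpf with no background subtraction (0.075), for CB493850 from 19 to 28 dpf (0.082) and CB511650 between the sexes at 19 dpf (-0.018) with the centred log values, and for CB494473 between genotypes at 19 dpf without array 15 (-0.022 to 0.671 over all arrays left out). Of 945 values of named ESTs 901 kept their direction and side of the threshold. Loess alone leaves arrays unscaled; the cause of the other changes was not tested. Detection in all 48 channels left 0 keratin ESTs, and a block on scan date and a test of the score table were not run. The genotypes were paired by array in the fits throughout, and sexes and time points share no array. Signal over background at 15 dpf limits what can be seen of dim ESTs.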
